A study of Homo sapiens with 6 samples.

Results

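Calpains are cysteine proteases of the cytosol that calcium activates and that cut their substrates at a few sites instead of degrading them. CAPN2, the large subunit of m-calpain, gave a higher signal in PANC-1 cells treated with anlotinib at all 5 of its probe sets, and CAPN11, a calpain known mainly from testis, gave a lower one at both of its probe sets. The other calpain genes moved by less than 2-fold, and the probe sets of CAST, which encodes the inhibitor calpastatin, split into 7 with a higher and 3 with a lower signal. The genes described are the 9 calpain subunits and calpastatin CAPN1, CAPN2, CAPN5, CAPN7, CAPN10, CAPN11, CAPN15, CAPNS1 and CAST, out of 15253 genes tested, and they are read by 34 probe sets that the array annotation gives to exactly 1 gene symbol. All 34 passed the filter applied here. The deposited values cover as many probe sets as the paper reports after its own filter, so members removed by it cannot be seen. The family was chosen by earlier results of the same comparison, in which CAPN2 and CAPN11 already stood out, so the differences of its members between anlotinib and DMSO are given as a description and carry no test.

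PANC-1 cells are a long-established line from a human ductal carcinoma of the pancreas. Anlotinib is a small molecule that blocks receptor tyrosine kinases. The study asked how gene expression changes in these cells with the drug, and compared 3 arrays of cells treated with anlotinib at 5.535 μM with 3 arrays of cells given only the solvent DMSO, both for 48 h. The labels give no other agent or genotype, and separate cultures are not mentioned for samples within a group, so the errors measure the spread between these samples, which may be technical. RNA was read on 3′ expression arrays, where a probe set is a group of short probes for 1 target sequence. Each value is a log2 signal, so a difference of 1 is 2-fold, and since probes bind with different strength, differences are taken only within a probe set, and levels of different probe sets give no order of abundance.

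Array medians lay between 7.71 and 7.77, arrays of a group correlated with r of at least 0.998 across probe sets, and arrays of different groups with at most 0.978. Of 6 epithelial and PANC-1 markers, KRT18 had a DMSO signal of 14.59, VIM 14.46, KRT7 8.53 and EPCAM 7.32. None was called by the 2-fold limit used below. Without that limit all but VIM were lower with anlotinib at an FDR below 0.05, beside 29.7% of all genes. Their log2 differences were −0.75 for KRT8, −0.58 for KRT19, −0.56 for KRT18, −0.34 for EPCAM and −0.26 for KRT7. Of markers for cells the culture should lack, 3 leukocyte, 4 endothelial, 3 fibroblast and 3 acinar genes were measured, and their DMSO signals ran from 4.71 to 7.72. Of these, CD68, a lysosomal glycoprotein, was called higher with anlotinib, and the others were not called. Their part in the results on the calpains was not tested.

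The classical calpains bind calcium through EF-hands at the end of the protein. CAPN1 (μ-calpain) and CAPN2 (m-calpain) each pair with the small regulatory subunit CAPNS1 and are held inactive by calpastatin. CAPN11 also has the EF-hand part. CAPN5, CAPN7, CAPN10 and CAPN15 lack it and are called non-classical. In adherent cells, calpains are known for cutting the links between integrins and the actin cytoskeleton, which lets focal adhesions turn over when a cell moves.

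The sequences at the start sites of CAPN2 and CAPN11, the genes with the largest differences in the family, are shown because their transcripts went in opposite directions. Windows of 300 bases, 250 before and 50 after a start site, were taken from RefSeq (GRCh38.p14) and exist in the table for 8 of the 9 genes, in 16 windows. CAPN2 has 2 of them, at chr1:223701347-223701646 and chr1:223712289-223712588, and CAPN11 has 1, at chr6:44158570-44158869, all on the plus strand. Capitals mark matches to the AP-1 motif TGACTCA, read on both strands.
CAPN2 upstream start: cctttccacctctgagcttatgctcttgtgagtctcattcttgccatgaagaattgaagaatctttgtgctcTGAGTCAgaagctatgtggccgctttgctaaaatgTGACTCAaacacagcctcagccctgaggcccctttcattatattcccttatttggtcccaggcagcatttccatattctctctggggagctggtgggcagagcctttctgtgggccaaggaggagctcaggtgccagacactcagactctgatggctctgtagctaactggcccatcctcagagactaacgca
CAPN2 downstream start: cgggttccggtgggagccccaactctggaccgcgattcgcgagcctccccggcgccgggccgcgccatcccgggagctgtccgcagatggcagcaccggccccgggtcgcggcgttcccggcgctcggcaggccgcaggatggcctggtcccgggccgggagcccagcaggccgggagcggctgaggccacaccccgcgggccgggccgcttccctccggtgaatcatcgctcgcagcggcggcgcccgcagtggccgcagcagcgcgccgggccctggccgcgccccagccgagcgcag
CAPN11 start: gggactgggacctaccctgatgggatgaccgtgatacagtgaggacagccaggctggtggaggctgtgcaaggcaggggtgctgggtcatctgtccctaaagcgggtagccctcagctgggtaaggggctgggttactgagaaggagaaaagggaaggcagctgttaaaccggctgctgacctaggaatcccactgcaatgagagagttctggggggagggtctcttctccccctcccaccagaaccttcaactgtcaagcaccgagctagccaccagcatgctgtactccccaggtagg
The upstream window of CAPN2 holds 2 matches, beginning 178 and 143 bases before the start site, and the other 2 windows hold none. Among all 35116 windows of that length 4.95% hold a match. In the family, 3 of 16 windows hold one, the other 2 being windows of CAPNS1 and CAST. The GC box GGGCGG, also read on both strands, was in 11 of the 16 windows, against 45% of all windows, and in none of the 3 printed here. Also searched were the CCAAT box CCAAT, the TATA box TATAAA, the E-box CACGTG and the CRE TGACGTCA. They were in 6, 1, 2 and 0 of the 16 windows, against 34.6%, 11.5%, 7.26% and 1.85% of all windows. The 16 are not separate promoters: CAST has 5 of them and CAPN1 has 3. The 2 most downstream windows of CAPN1 overlap, so a site there can be counted more than once. The downstream window of CAPN2 was 79.7% G and C, its upstream window 50.3% and that of CAPN11 59.0%, beside a median of 58.7% over all windows. A match in these letters is not evidence of binding, and the array does not tell from which start a transcript came.

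The study also read both genes by quantitative PCR, whose values are not used here. Its primers are given because they define which part of each mRNA was amplified.
CAPN2 forward: gagaagggttctagcaaagcg
CAPN2 reverse: caaaccgagcaacgatgact
CAPN11 forward: gcggagcccacttttactgat
CAPN11 reverse: gccaggagatgttctgcaca

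CAPN2, the catalytic subunit of m-calpain, was higher with anlotinib. At its brightest probe set, 11741129_s_at, the log2 signals were 12.63, 12.66 and 12.61 in the DMSO arrays and 13.70, 13.64 and 13.71 in the anlotinib arrays. The groups did not overlap, and the log2 difference was 1.05 (SE 0.04, n = 3 per group), a fold of 2.07. At 11750167_a_at, the probe set with the widest gap, the signals were 10.27, 10.32 and 10.27 in DMSO and 11.69, 11.72 and 11.65 with anlotinib, a difference of 1.40 (SE 0.04) or 2.64-fold. Every anlotinib array lay above every DMSO array at all 5 probe sets. The differences at 11718978_x_at and 11718977_a_at were 1.17 (SE 0.04) and 1.25 (SE 0.05). The dimmest, 11741128_a_at, gave 8.58, 8.49 and 8.58 in DMSO against 9.46, 9.49 and 9.60 with anlotinib, a difference of 0.97 (SE 0.05), just short of 2-fold. The size of the increase ran from 1.95-fold to 2.64-fold according to the probe set. Probe sets of CAPN2 designed on the same target record differed by 0.07 and 0.08, less than those designed on different ones.

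CAPN11 gave the opposite picture. At 11733163_at the signals were 7.96, 8.01 and 8.02 in DMSO and 6.25, 6.20 and 6.22 with anlotinib, and the log2 difference was −1.77 (SE 0.04, n = 3 per group), a ratio of 3.41 between the signals in DMSO and with anlotinib. At 11753259_a_at they were 7.59, 7.57 and 7.50 in DMSO and 6.09, 5.98 and 6.42 with anlotinib, a difference of −1.39 (SE 0.11). Both probe sets were lower in all 3 anlotinib arrays, with wide gaps between the groups. The second had the larger spread, an SD of 0.23 with anlotinib, where array 3 was the highest. With anlotinib the mean signals were 6.23 and 6.16. In DMSO, markers of cells the culture should lack ranged from 4.71 to 7.72, which includes both. The DMSO mean of 11753259_a_at, 7.55, was inside that range as well, near its upper end, which CD68 sets. The DMSO signals of 11733163_at, 7.96, 8.01 and 8.02, were all above the range. The next highest marker after CD68, COL1A1 at 6.60, was below the DMSO signals of both CAPN11 probe sets. The signals with anlotinib are not shown to be above background. How much of each signal is background was not tested, so the folds are ratios of signals.

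**Figure D1:**
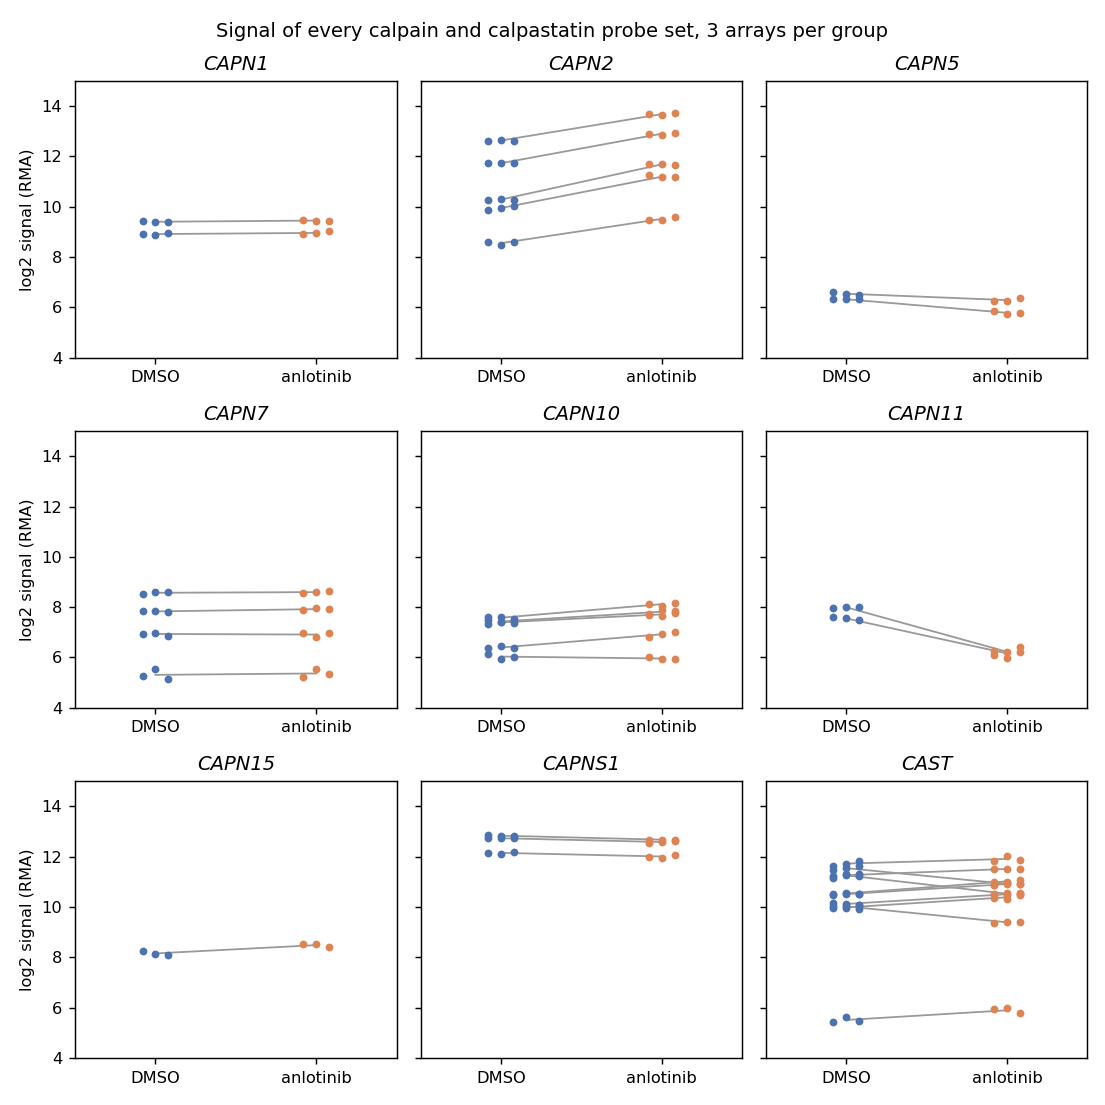
Log2 signal (vertical axis) of the 34 probe sets in the 3 DMSO arrays (blue) and the 3 anlotinib arrays (orange), 1 panel per gene; grey lines join the 2 group means of a probe set. All 5 lines of CAPN2 go up and both of CAPN11 go down, while lines of CAST go both ways.

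Of the 34 probe sets, 4 were called higher with anlotinib, all of CAPN2, and 2 were called lower, both of CAPN11, by a limit of 2-fold together with a limma FDR below 0.05. Over all 39063 tested probe sets 2.38% were called higher and 1.71% lower by the same rule, and since these genes were chosen on this comparison the counts are a description only. At the brightest probe set of each gene, 1 of the 9 genes was called higher and 1 lower, beside 2.1% and 1.91% of all 15253 genes. Without the fold limit, 16 probe sets of the family were higher and 10 lower at that FDR, where 28.3% of all probe sets were higher and the same share, 28.3%, lower. All 3 anlotinib arrays lay above all DMSO arrays in 19 probe sets and below them in 10, beside 31.5% and 31.6% of all probe sets. The median log2 difference over the 34 probe sets was 0.14, and over all tested probe sets −0.02. These figures weigh some genes more than others. CAST has 10 of the 34, with 6 higher and 3 lower at that FDR, and CAPN2 has 5, all higher. At the brightest probe set CAPN2, CAPN10 and CAPN15 were higher at that FDR, and CAPN5, CAPN11 and CAPNS1 lower. The call of CAPN2 at its brightest probe set rests on a value close to the 2-fold limit: with limma's treat, which asks whether a change exceeds 2-fold beyond its error, 1 probe set of CAPN2 (11750167_a_at) and 1 of CAPN11 (11733163_at) were called.

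CAPN1, the catalytic subunit of μ-calpain, differed far less. At 11747222_a_at the signals were 9.42, 9.41 and 9.38 in DMSO and 9.48, 9.43 and 9.45 with anlotinib. The log2 difference was 0.05 with a 95% interval of −0.04 to 0.14, and at 11754307_x_at it was 0.05 with −0.06 to 0.16, and only at the first did the groups not overlap.

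CAPNS1, the small subunit that stabilizes both large ones, was slightly lower at all 3 probe sets. At 11758205_x_at the signals were 12.87, 12.83 and 12.82 in DMSO and 12.68, 12.68 and 12.67 with anlotinib. The differences were −0.16 (SE 0.04), −0.15 (SE 0.04) and −0.14 (SE 0.04), and no anlotinib array reached a DMSO array at any of them. The DMSO signal was 1.11-fold to 1.12-fold that with anlotinib, far below the limit for a call. The log2 difference of CAPN2 at its brightest probe set exceeded that of CAPNS1 by 1.21, a comparison chosen after the values were seen.

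**Figure D2:**
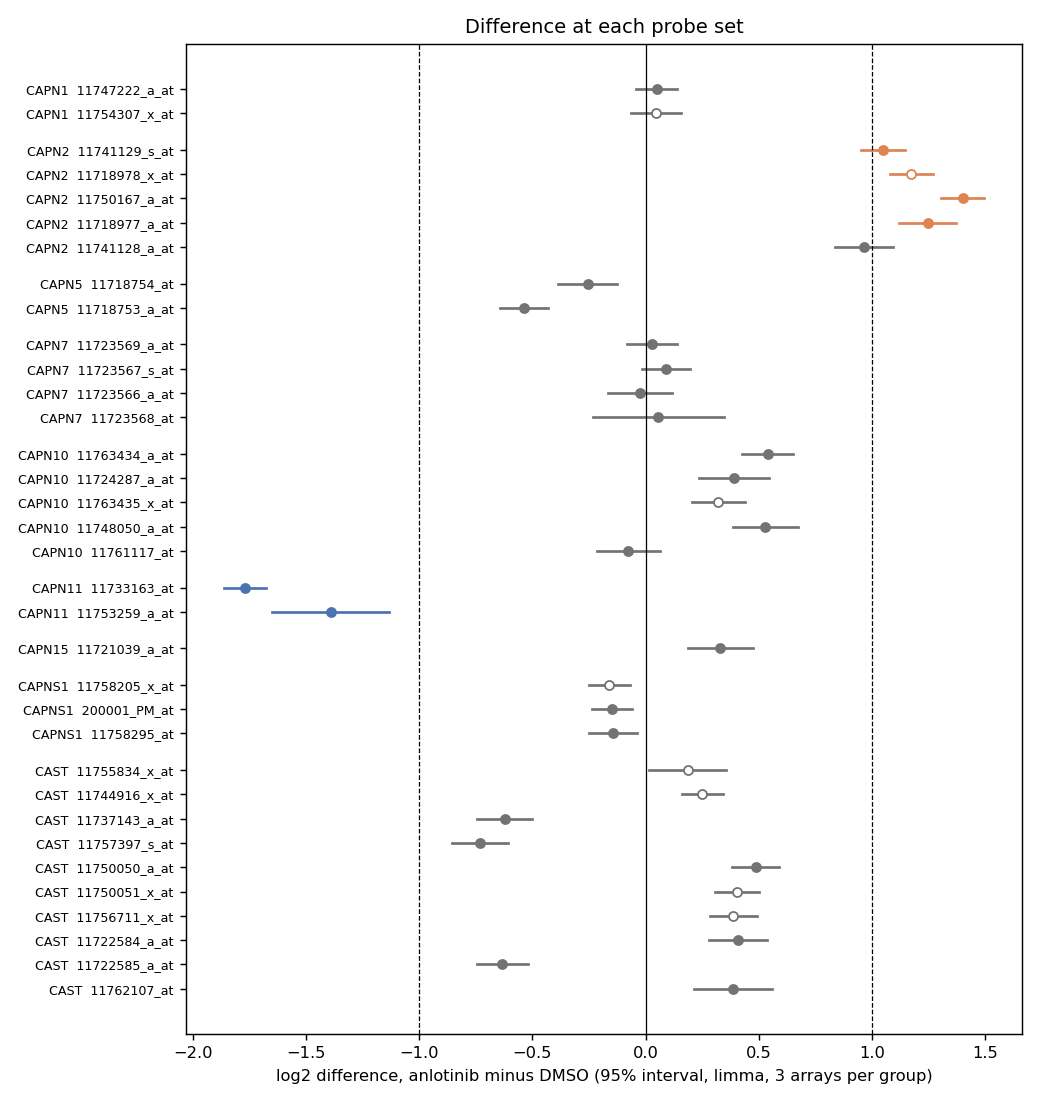
Log2 difference between anlotinib and DMSO (horizontal axis) at each of the 34 probe sets, with its 95% interval from limma; orange and blue mark probe sets called higher and lower, open circles those marked as possibly cross-hybridizing, and dashed lines 2-fold. The 5 values of CAPN2 lie between 0.97 and 1.40, those of CAPN11 at −1.77 and −1.39, and all others within 2-fold.

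CAST encodes calpastatin, the protein that binds and blocks CAPN1 and CAPN2 when calcium is present. Its 10 probe sets did not move as 1 transcript. At 11757397_s_at the signals were 11.17, 11.29 and 11.33 in DMSO and 10.50, 10.55 and 10.53 with anlotinib, a log2 difference of −0.73 (SE 0.05). Likewise 11737143_a_at gave 11.47, 11.54 and 11.63 in DMSO and 10.89, 10.95 and 10.93 with anlotinib, a difference of −0.62 (SE 0.05), and 11722585_a_at gave −0.63 (SE 0.05). At these 3 probe sets all anlotinib arrays were below all DMSO arrays. At the other 7 all anlotinib arrays were above all DMSO arrays. At 11750050_a_at, which had the largest increase, the signals were 10.53, 10.55 and 10.53 in DMSO and 10.99, 10.99 and 11.09 with anlotinib, a difference of 0.49 (SE 0.04). At 11722584_a_at they were 10.05, 9.97 and 9.92 in DMSO and 10.38, 10.33 and 10.46 with anlotinib, a difference of 0.41 (SE 0.05).

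The brightest CAST probe set, 11755834_x_at, gave the smallest increase, 0.19 (SE 0.07), with signals of 11.63, 11.71 and 11.84 in DMSO and 11.85, 12.02 and 11.88 with anlotinib. Here the groups only just separate, and it is the only one of the 10 that missed the FDR limit. In all, the increases ran from 0.19 to 0.49 and the decreases from −0.73 to −0.62, and none of the 10 reached 2-fold. The suffix _x in the name marks 4 of the 7 higher probe sets as possibly cross-hybridizing and none of the 3 lower ones. Without marked probe sets, 3 were higher and 3 lower, and the brightest of these gave −0.62, so that the direction of CAST depends on which probe set stands for the gene. Among the unmarked higher ones, 11762107_at was dim, with means of 5.51 in DMSO and 5.89 with anlotinib. These lie inside the range for markers of cells the culture should lack, while group means of the 3 lower ones ran from 9.39 to 11.55. The log2 distance between the mean of the 7 and the mean of the 3 shifted by 1.02 from DMSO to anlotinib, a number that follows from sorting the probe sets by direction. RefSeq gives CAST 5 start-site windows, more than any other gene of the family, and its annotated extent overlaps those of ELL2, PCSK1 and ERAP1. Which transcript or which part of it each probe set reads was not tested.

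**Figure D3:**
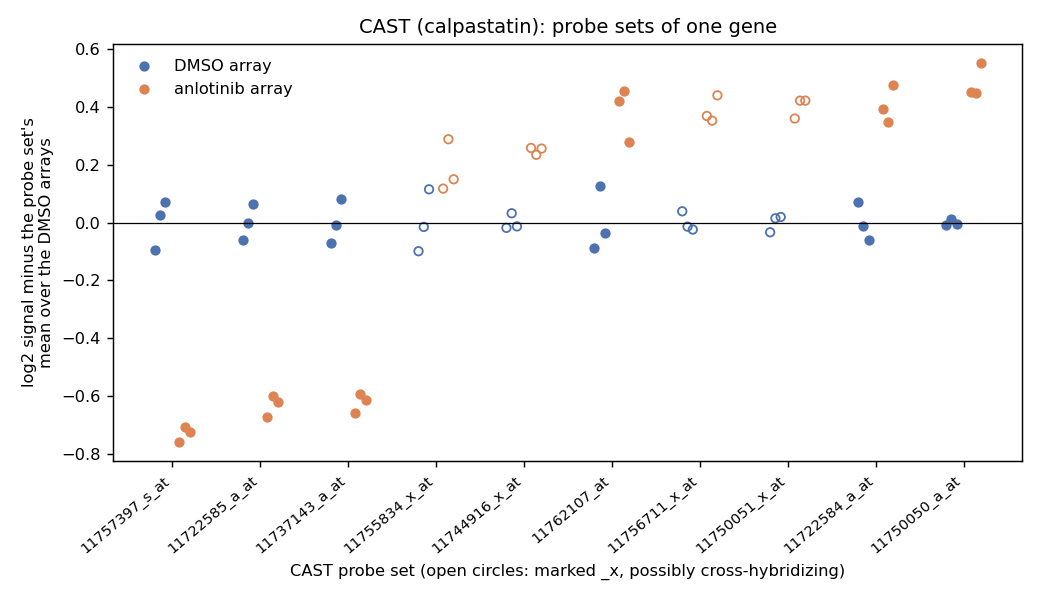
Log2 signal of each array minus the mean of the 3 DMSO arrays (vertical axis) for the 10 CAST probe sets (horizontal axis, ordered by difference), with DMSO in blue, anlotinib in orange and open circles for probe sets marked as possibly cross-hybridizing. The anlotinib arrays of 3 probe sets lie below −0.5 and those of the other 7 above 0.

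Among the non-classical calpains, CAPN10, known in human genetics as a gene linked to type 2 diabetes, was higher at 4 of its 5 probe sets. At 11763434_a_at the signals were 7.62, 7.60 and 7.54 in DMSO and 8.12, 8.06 and 8.18 with anlotinib, a log2 difference of 0.54 (SE 0.05). The other 3 higher ones had 0.53, 0.39 and 0.32, and their groups did not overlap either. In DMSO the mean signals of all 5 lay between 6.04 and 7.58, inside the range for markers of cells the culture should lack. CD68 alone sets the upper end of that range, 7.72, and the next highest marker is COL1A1 at 6.60. The CAPN10 means of 7.58, 7.43 and 7.39 were above COL1A1, and those of 6.40 and 6.04 below it. At 11761117_at the groups overlapped, with a difference of −0.08 and a 95% interval of −0.21 to 0.06. This probe set and 11748050_a_at (0.53) carry the same target record in the annotation, and their gap of 0.60 was the widest of the 6 such pairs in the family, the other 5 of which differed by 0.07 to 0.22.

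CAPN5, a relative of the sex determination protease TRA-3 of Caenorhabditis elegans, was lower at both probe sets. The signals at 11718753_a_at were 6.33, 6.32 and 6.32 in DMSO and 5.85, 5.73 and 5.76 with anlotinib, a log2 difference of −0.54 (SE 0.04). At 11718754_at the difference was −0.26 (SE 0.06), again without overlap. The group means of both CAPN5 probe sets, 5.78 to 6.54, lay inside the range for markers of cells the culture should lack. CAPN15, which carries zinc fingers ahead of the protease, has 1 probe set, with signals of 8.26, 8.13 and 8.08 in DMSO and 8.52, 8.53 and 8.41 with anlotinib and a difference of 0.33 (SE 0.06). CAPN7, which binds the membrane-remodeling ESCRT machinery, had differences of −0.02 to 0.09 at 4 probe sets, and at 3 of them the groups overlapped. At the brightest, 11723569_a_at, the 95% interval was −0.08 to 0.14. The non-classical members thus held 1 gene with higher signal at most probe sets, 1 with higher signal at its only one, 1 with lower signal and 1 without a clear difference, and none was called.

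Of 8 further calpain genes, 5 had a probe set annotated to 1 gene, 7 probe sets in all, and none was called in limma, beside 2.38% of all probe sets called higher and 1.71% lower. Without the fold limit 3 of the 7 were lower, beside 28.3% of all. CAPN12, a classical calpain known from hair follicles and skin, had the largest difference, from 9.67 ± 0.06 (SD, n = 3) in DMSO to 8.98 ± 0.03 with anlotinib, or −0.69 (SE 0.05). CAPNS2, a second small subunit, had −0.20 (SE 0.05), and CAPN9, known from stomach, −0.22 (SE 0.08) at signals of 4.67 and 4.45, among the dimmest measured. CAPN13 had −0.13 (SE 0.05). CAPN3, the muscle calpain, had −0.22, −0.05 and 0.00 at its 3 probe sets, with signals of 5.30 to 5.79. CAPN6, CAPN8 and CAPN14 were not analysed here.

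Genes whose proteins calpains are known to cut were examined as a list of 24, of which 22 were tested. The values are signals of their mRNA and do not measure cutting. At the brightest probe set 2 were called higher in limma and none lower, beside 2.1% and 1.91% of all genes. Without the fold limit 6 were higher and 3 lower, beside 25.4% and 29.7% of all genes. NFKBIA, the inhibitor of NF-κB, rose by a log2 difference of 1.30 (SE 0.04). CDK5R1, the p35 activator of CDK5, had 1.01 (SE 0.09), from a DMSO signal of 4.49, among the dimmest measured, where a fold is least certain. It fell below 2-fold without DMSO 1 (0.95), anlotinib 1 (0.996) or anlotinib 3 (0.93), which left 1 gene called. CTTN, the actin-binding cortactin, had 0.84 (SE 0.04) at its brightest probe set and was called at 2 dimmer ones with 1.06 and 1.30. MARCKS, which links actin to the membrane, had −0.11 at its brightest and was called lower at another, with −1.62. The others that passed the FDR limit alone were EZR (ezrin, which ties actin to the membrane) at 0.37, ATG5 (autophagy) at 0.25 and PTPN1 (a tyrosine phosphatase) at 0.20 among the higher, and ITGB1 (an integrin) at −0.12, TLN1 (talin, which binds integrins) at −0.16 and BID (a pro-apoptotic protein) at −0.32 among the lower. The median of the 22 genes was −0.05, beside −0.04 over all genes.

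Calpains depend on calcium, and genes that carry it into the cytosol or pump it out were examined as a list of 18, of which 17 were tested. In limma, none was called higher and 1 lower, beside 2.1% and 1.91% of all genes. Without the fold limit 4 were higher and 9 lower, beside 25.4% and 29.7% of all genes. ORAI3, a calcium channel of the plasma membrane, fell, with a log2 difference of −1.04 (SE 0.05), and its other probe set gave −0.63. Both are marked as possibly cross-hybridizing, and without marked probe sets none of the list was called. ITPR3 and ITPR1, channels that release calcium from the endoplasmic reticulum, had 0.88 (SE 0.04) and −0.76 (SE 0.06), and TRPM7, a channel joined to a kinase, 0.64 (SE 0.05). The median was −0.17, beside −0.04 over all genes.

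**Figure D4:**
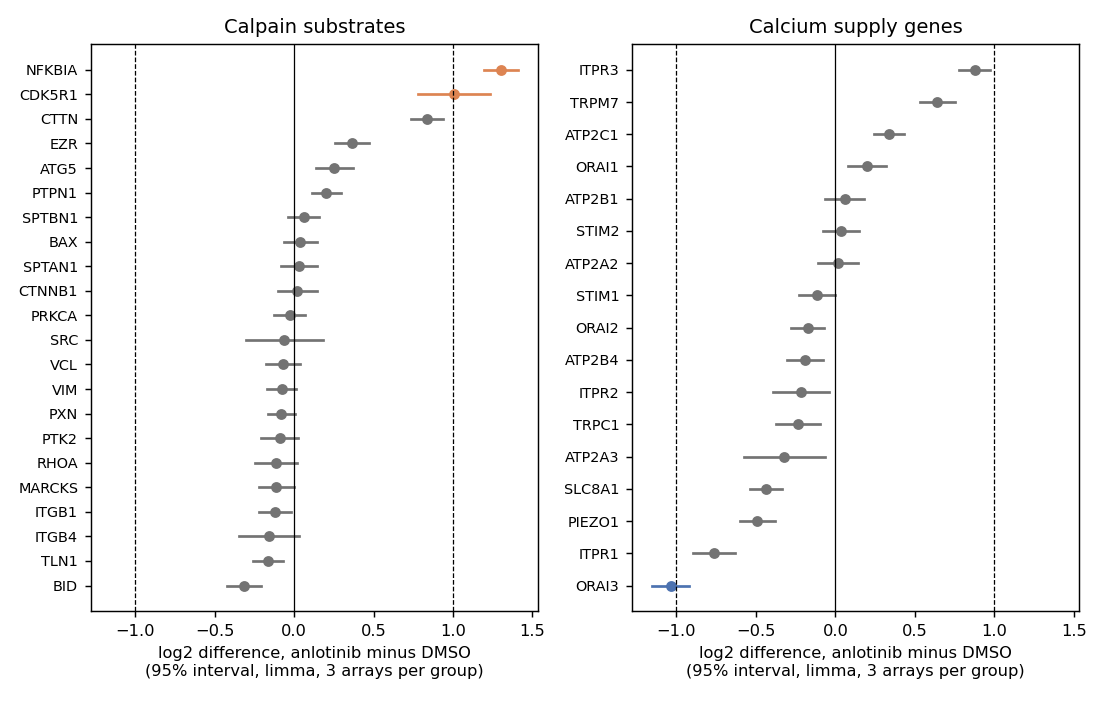
Log2 difference between anlotinib and DMSO (horizontal axis) at the brightest probe set of 22 calpain substrates and 17 calcium supply genes, with 95% intervals from limma; orange and blue mark called genes and dashed lines 2-fold. NFKBIA and CDK5R1 lie above the upper line, ORAI3 below the lower one, and most genes lie near 0.

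Likeness of profile was measured as the root mean square difference over the 6 arrays between log2 signals of the brightest probe sets, each taken relative to its own mean, among 15253 genes. The genes most like CAPN2 were S100P, a calcium-binding EF-hand protein (0.014), INPP1, an inositol phosphatase (0.018), and CHMP1B, an ESCRT subunit (0.021). Their differences were 1.03, 1.03 and 1.05. Most like CAPN11 were CDC25C, a phosphatase that starts mitosis (0.022), AURKB, a mitotic kinase (0.027), and TOP2A, a topoisomerase of dividing cells (0.031), with differences of −1.79, −1.76 and −1.72. This measure follows mainly the size of the difference between the groups, which these genes share by construction.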

How the data were processed

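RNA of PANC-1 cells, 3 samples with anlotinib and 3 with DMSO, was hybridized to Affymetrix PrimeView arrays. The log2 values were deposited by the authors after RMA, which adjusts for background, normalizes the arrays to each other and summarizes the probes of a set, and the methods name a filter on low signals and on a coefficient of variation over 25% within a group, without its scale. The table holds 39219 probe sets, as many as the paper reports after its own filtering. Here 73 control probe sets and 83 that still exceeded this coefficient of variation on the linear signal, a scale chosen here, were left out, which left 39063 for limma 3.58.1 (lmFit, eBayes; R 4.3.3) with Benjamini-Hochberg adjustment over all of them. The annotation gives 35858 of these 1 gene, of which 35843 matched the gene table through the entrez identifier. Members, gene lists and tests were chosen with earlier results of these data known. Named are all members, the other calpains, up to 4 called genes of each list (otherwise its 2 largest differences), and the 3 profiles most like CAPN2 and CAPN11; other genes were named after their values were seen. Arrays give no counts, so the number of arrays limits the precision. With 3 against 3 an exact two-sided permutation test cannot go below p = 0.1. The fit was checked on simulated data. The alternatives tried are named in the additional observations.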

Additional observations from a re-analysis of the deposited data

How the results depend on the processing

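Each of these was changed alone: the filters (CV filter dropped or computed on log2 values, a cutoff at the lowest 40% of signals, marked probe sets removed), the scaling (quantile normalization repeated, arrays centred on their medians), the test (a 1.5-fold limit, treat, trended robust eBayes, replicate block), the probe set that stands for a gene (the median of all instead of the brightest) and the arrays (each removed once). CAPN11 kept its direction in all of them, at −1.79 to −1.58, and CAPN2 did at 1.03 to 1.17. Whichever array was left out, the same 6 probe sets of the family were called. The arrays' numbers are shared between the groups, and deviations of same-numbered arrays correlated with r of 0.168, 0.0065 and −0.143. Over the probe sets of the family r was 0.099, 0.44 and −0.080. With 3 arrays per group these values cannot tell whether the samples were handled in pairs, and the labels do not say. The fit with the replicate block called the same 6 probe sets, 4 higher and 2 lower.

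With the lowest 40% of signals left out, 1 probe set of the family was lower (11733163_at of CAPN11) and 1 substrate higher. With the limit of 1.5-fold, 5 of the family were lower, 3273 and 2868 of all probe sets were higher and lower, and 2 calcium genes were higher and 2 lower. With treat, 1 of the family was higher and 1 lower, 0 of its genes were higher at the brightest probe set (CAPN2 stayed at 1.05 but was not called), 407 and 248 of all were higher and lower, 1 substrate was higher and 0 calcium genes lower. With centring, 1 substrate was higher. Leaving out an array gave 1 to 2 higher substrates. Without marked probe sets 0 calcium genes were lower and CAST reversed to −0.62, since another probe set is then its brightest. CAPN7, at 0.03 with all arrays, ran from −0.0013 (without anlotinib 3, a reversed sign) to 0.0515 when an array was left out. CAPN5 has no value with the lowest 40% left out, since neither of its probe sets passed. Low signals (CAPN5, CAPN9, CDK5R1, 11762107_at of CAST, CAPN10 in DMSO, and CAPN11 with anlotinib) limit what a fold there can show.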

Other observations

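A further probe set, 11738894_a_at, is annotated to both GPR35 and CAPN10 and was therefore left out of the family. Its log2 signals were 4.50, 4.36 and 4.75 in DMSO and 4.90, 4.80 and 4.87 with anlotinib, close to the bottom of the table, and which of the 2 genes it reads was not tested.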
